A study of Mus musculus with 6 samples.

Results

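The insulin-like growth factor (IGF) axis, with the growth hormone and insulin receptors, was described in mouse soleus muscle. It was taken as every probe that the platform annotation assigns to Igf1, Igf2, Igf2r, Insr, Ghr, Igfbp2, Igfbp3, Igfbp4, Igfbp5 or Igfbp6. These were 10 of the 203 genes named on the array and had 11 of its 223 probes, because Igf1 had 2 probes, 16I and 22H, which were kept apart. All 6 samples were of 1 group, control mice of the C57Bl/6 strain, numbered 1 to 6 in the labels, with total RNA from cryosections of the soleus, a small postural muscle of the calf. The titles also carry the letters "HUR wt", which the labels do not explain. The labels give no age or treatment and do not say if separate mice were used, so the p-values measure only the spread between these samples, which may be technical. With 1 group there was no comparison between conditions, and the results are the detection, level and spread of each probe and how the probes varied together.

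Igf1 and Igf2 are secreted growth factors. Growth hormone acts through its receptor, Ghr, to raise Igf1 in liver and in muscle, and muscle Igf1 also acts locally on the fibres and satellite cells that make it or lie beside it. Both factors signal mainly through the IGF1 receptor and, for Igf2, one form of the insulin receptor, while Igf2r binds Igf2 and carries it to lysosomes for breakdown. The IGF binding proteins hold the factors in the extracellular space and blood and either restrain or prolong their action. In whole muscle, RNA comes from fibres and from vessels, fibroblasts and other cells, so fewer cells of a type and less RNA per cell cannot be told apart.

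Igf2r and Igfbp5 are shown with their upstream sequence because their levels had the smallest p of any pair of members over the samples, with the values further on. The windows are the 250 bases before the annotated start sites, in the direction of transcription, from RefSeq on build GRCm38.p6. Capitals mark matches on either strand to GGGCGG, known as a GC box. They also mark matches to CACGTG, known as an E box. The same was done for the TATA box, TATAAA.
Igf2r, chr17:12769707-12769956, minus strand: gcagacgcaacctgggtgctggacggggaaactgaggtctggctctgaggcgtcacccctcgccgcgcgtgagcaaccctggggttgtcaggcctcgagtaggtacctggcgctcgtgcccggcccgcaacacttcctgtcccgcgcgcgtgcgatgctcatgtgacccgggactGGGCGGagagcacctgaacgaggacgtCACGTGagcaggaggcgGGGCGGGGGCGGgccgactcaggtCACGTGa
Igfbp5, chr1:72874866-72875115, minus strand: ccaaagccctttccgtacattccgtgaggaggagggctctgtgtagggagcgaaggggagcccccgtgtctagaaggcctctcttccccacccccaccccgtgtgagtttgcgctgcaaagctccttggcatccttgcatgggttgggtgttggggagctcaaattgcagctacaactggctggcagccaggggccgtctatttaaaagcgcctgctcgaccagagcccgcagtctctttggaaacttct
The Igf2r window had 3 matches to GGGCGG and 2 to CACGTG, and a GC content of 69.2%. The Igfbp5 window had 0 matches to these 3 motifs and a GC content of 58.8%. Of 32851 promoter windows of this length, 32.7% held GGGCGG, 6.02% held CACGTG and 12.4% held TATAAA. The motifs were searched on both strands, and adjoining GGGCGG matches in the Igf2r window were counted apart. RefSeq windows were found for 9 of the 10 genes, all but Insr.

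A probe was counted as detected on an array where its intensity lay above the noise bound, which was the size of the most negative intensity of that array. Of the 223 probes, 109 to 166 were detected per array, fewest in control 2 with 109 and control 1 with 143, and the median over the 153 probes that lay above 0 on all 6 arrays differed 4.14-fold between arrays. Levels are given in log2 against that median of their own array. A level carries the affinity of its probe, so levels of different genes are not ranked. The slow fibre markers on the array, Myh7 and Mb, and the fast myosins Myh1, Myh2 and Myh4 were above the bound on all 6 arrays. Of the probes listed as markers of other cells, 4 of 5 endothelial, 1 of 1 adipocyte and 1 of 1 pericyte probes were above it on all 6 arrays. So was 1 of 3 fibroblast probes and 1 of 3 listed for satellite cells. The latter was the muscle transcription factor Myog, whereas Myod1 was above the bound on 4 arrays and Myf5 on 0. None of the 4 immune and 3 Schwann cell markers that were sought was among the named probes, and other genes of these cells were not sought.

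Both ligands, Igf2r, Ghr and the binding proteins Igfbp4, Igfbp5 and Igfbp6 were detected on all 6 arrays. That is 8 of 11 probes, against 47.5% of all 223 probes. The weakest signals among the 8 were 1.23 times the bound for Igfbp4 and 1.52 times for Igf2r, both in control 2. The Igfbp6 signal ran from 17.9 times the bound in control 2 to 170.1 times in control 6.

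The insulin receptor, Igfbp2 and Igfbp3 stayed near the bound. Insr, which mediates the action of insulin on glucose uptake, had intensities of 0.0019, 0.0023, 0.0041, 0.0112, 0.0019 and 0.0022 in controls 1 to 6. These exceeded the bound in controls 3, 4 and 6, by 1.24, 1.29 and 1.22 times. Igfbp2, a binding protein with a preference for Igf2, had intensities of 0.0007, -0.0013, 0.0036, 0.0182, 0.0068 and 0.0051. It was above the bound in controls 3 to 6, at 1.09 to 2.96 times, and below it in controls 1 and 2, the arrays with the fewest detected probes. Igfbp3, the main carrier of IGFs in blood, had intensities of 0.0034, -0.0020, 0.0020, 0.0093, 0.0035 and 0.0024. It exceeded the bound in controls 4, 5 and 6 by 1.07 to 1.52 times and equalled it in control 1. A low signal of a single probe does not show that a transcript is absent, and levels of these 3 genes rest in part on background.

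**Figure D1:**
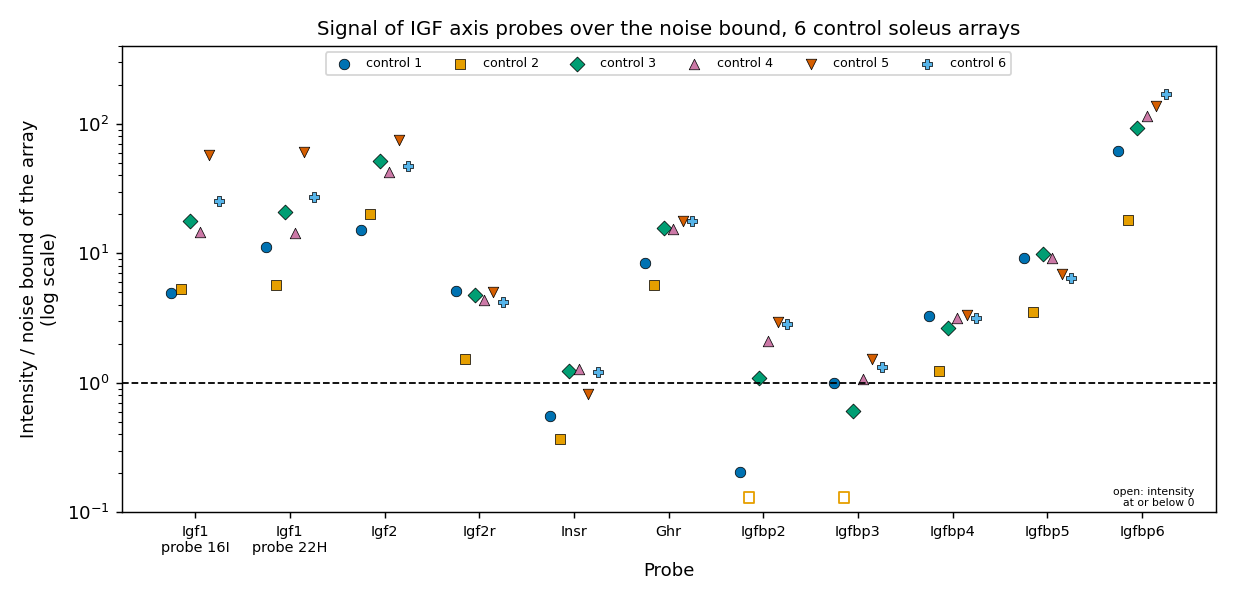
Intensity of each of the 11 probes divided by the noise bound of its array (log scale), 1 symbol per control sample. The dashed line is the bound, and the open squares are the intensities at or below 0 of Igfbp2 and Igfbp3 in control 2. Igf1, Igf2, Igf2r, Ghr, Igfbp4, Igfbp5 and Igfbp6 lie above the line on all 6 arrays, whereas Insr, Igfbp2 and Igfbp3 lie on both sides of it.

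Among other genes of the pathway, 9 of the 49 listed were on the array. The probe for Igf1r, the receptor that carries most Igf1 signalling, had intensities of -0.0008, -0.0032, -0.0008, -0.0014, -0.0002 and 0.0005 and was above the bound on 0 arrays. Igfbp1, a binding protein known from liver, reached at most 0.696 times the bound. Myf5, a factor of muscle precursor cells, reached at most 0.697 times, so 3 of the 9 were above the bound on 0 arrays, against 21.1% of all 223 probes. The insulin-responsive glucose transporter Slc2a4 was detected on all 6, with a level of 2.45 ± 0.34 (SD, n = 6). The muscle transcription factors Myog (-1.43 ± 0.65) and Myf6 (0.74 ± 0.43) were also detected on all 6. Fst, an antagonist of myostatin, and the cyclin Ccnd1 were detected on 5 arrays and Myod1 on 4. None of the 6 with an intensity above 0 on all arrays passed the test for excess spread described below.

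Igf1 was highest in control 5 on both of its probes. Probe 16I had levels of 0.05, 1.20, 1.18, 1.09, 2.65 and 1.51 in controls 1 to 6, a mean of 1.28 ± 0.84 (SD, n = 6). Probe 22H had levels of 1.25, 1.29, 1.42, 1.05, 2.71 and 1.62, a mean of 1.56 ± 0.60 (SD, n = 6). Control 5 therefore stood 2.21-fold above the next sample on probe 16I and 2.14-fold on probe 22H. Control 5 was also the highest on both probes after quantile normalization and after cyclic loess. The same held without any centring, though there it was 1.04-fold and 1.12-fold above control 4. Without control 5, the SD of probe 22H was 0.21 and that of probe 16I was 0.56. Of all 153 probes, 13.1% were highest in control 5.

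The Igf1 probes went apart in control 1. The intensity of 22H divided by that of 16I on the same array, which multiplying an array by a constant does not change, followed from 0.0384 and 0.0168 in control 1, 0.0355 and 0.0332 in control 2, and 0.0688 and 0.0583 in control 3. In control 4 the intensities were 0.1240 and 0.1277, in control 5 0.1384 and 0.1327, and in control 6 0.0494 and 0.0459. The log2 ratio was 1.19 in control 1, where 16I was lowest of all samples and 22H was not. The ratio spanned 2.35-fold over all samples and 1.22-fold without control 1. Over the 6 arrays Pearson's r between the probes was 0.85 (two-sided exact permutation p = 0.05, adjusted p = 0.247) and Spearman's rho was 0.89 (exact p = 0.0333, adjusted p = 0.247). With controls 5 and 1 removed, which lay farthest from the median of 16I, r was 0.88, and without control 5 alone it was 0.45.

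Igf2, the other ligand and an imprinted gene that is most active before birth, was lowest in control 1. Its levels were 1.67, 3.11, 2.72, 2.63, 3.03 and 2.39, a mean of 2.59 ± 0.53 (SD, n = 6). Control 1 was 0.72 below the next sample on the log2 scale, and the others lay between 2.39 and 3.11. Without control 1 the SD was 0.30. Of all 153 probes, 19% were lowest in control 1. The highest sample for Igf2 was control 2, by 1.06-fold, and it was control 5 after quantile normalization or cyclic loess and control 4 without centring. Igf2 had r = 0.39 with Igf1 probe 22H (exact permutation p = 0.39, adjusted p = 0.614; rho 0.31, exact p = 0.564, adjusted p = 0.78) and 0.14 without controls 5 and 4. With probe 16I it had r = 0.74 (exact permutation p = 0.126, adjusted p = 0.357; rho 0.54, exact p = 0.297, adjusted p = 0.591), and -0.56 without controls 5 and 1. Neither relation of the ligands passed the test.

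**Figure D2:**
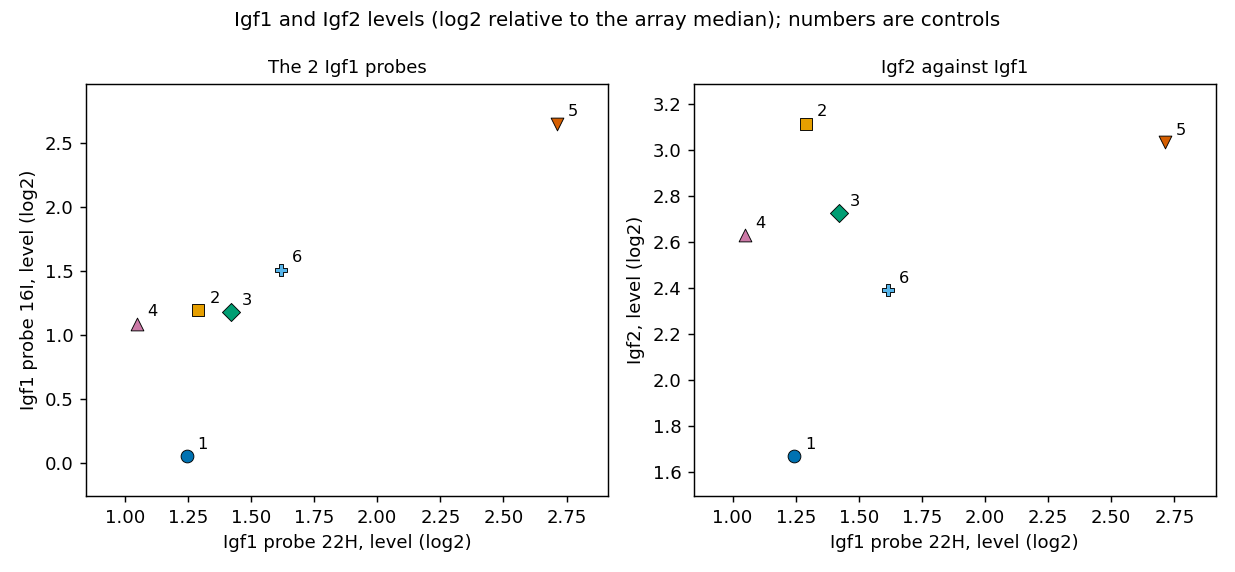
Levels (log2 relative to the array median) of Igf1 probe 16I (left) and of Igf2 (right) against Igf1 probe 22H, 1 symbol per control sample, numbered. Control 5 is highest on both Igf1 probes, at 2.65 and 2.71, and control 1 is low on probe 16I and on Igf2, at 0.05 and 1.67, but not on probe 22H, at 1.25.

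Ghr, the growth hormone receptor, had the most even level of the 9 member probes that lay above 0 on all 6 arrays. Its levels were 0.81, 1.30, 1.01, 1.17, 0.94 and 1.00, a mean of 1.04 ± 0.17 (SD, n = 6; 95% interval of the SD 0.11 to 0.42). The highest and the lowest sample differed 1.40-fold, and the SD was the lowest but 3 of 153. Ghr also had the lowest SD of the 9 after quantile normalization and cyclic loess, whereas without centring its SD was 0.82 and that of Igfbp4 was lower, at 0.80. Its intensity without centring differed 4.75-fold between samples, against the 4.14-fold of the array medians. Against limma's prior SD of 0.49 for probes of like intensity, the lower tail had an adjusted p = 0.512 in limma, in a test chosen after the values were seen. The unadjusted lower-tail p was under 0.05 for 2 of the 9 members, Ghr and Insr, of which Insr was near the bound, and for 5.23% of the 153 probes.

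Igf2r, which clears Igf2, had levels of 0.10, -0.63, -0.71, -0.65, -0.88 and -1.08, a mean of -0.64 ± 0.40 (SD, n = 6). Control 1 was 1.66-fold above the next sample, and without it the SD was 0.19. Control 1 also led after quantile normalization and cyclic loess, and control 4 led without centring. The receptor Insr had levels of -3.09, -2.66, -2.65, -2.42, -3.47 and -2.87, with an SD of 0.38, but 3 of these values were below the bound. The SD of Insr was 0.71 after cyclic loess and 0.68 with values raised to the bound.

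Igfbp4 and Igfbp5, binding proteins made by muscle and connective tissue cells, were highest in control 1. Igfbp4, which restrains IGF action until it is cleaved, had levels of -0.53, -0.93, -1.56, -1.12, -1.45 and -1.50, a mean of -1.18 ± 0.40 (SD, n = 6). Igfbp5, which binds to extracellular matrix, had levels of 0.95, 0.59, 0.35, 0.43, -0.40 and -0.47, a mean of 0.24 ± 0.56 (SD, n = 6). Controls 5 and 6 were the lowest for Igfbp5 and the ones below the array median. Control 1 led for both genes after quantile normalization, whereas control 2 led for Igfbp4 after cyclic loess and control 4 for both without centring.

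Igfbp6, a binding protein with a strong preference for Igf2, was lowest in control 2. Its levels were 3.70, 2.94, 3.59, 4.07, 3.90 and 4.25, a mean of 3.74 ± 0.46 (SD, n = 6). Control 2 was 0.65 below the next sample on the log2 scale, and it was also lowest after quantile normalization, after cyclic loess and without centring. Without control 2 the SD was 0.27. Of all 153 probes, 23.5% were lowest in control 2. Igfbp6 levels moved with the number of probes above the noise bound on each array, with r = 0.927 (two-sided exact permutation p = 0.0167, adjusted p = 0.121 over the 106 detected probes). The rho was 0.886 (exact p = 0.0333, adjusted p = 0.141). With controls 2 and 6 removed, the arrays of the fewest and the most such probes, r was 0.466. This relation was computed after the values were seen, for the 8 detected members, of which 1 had an unadjusted p under 0.05, against 22.6% of the 106 probes. For the other 7, r lay between -0.646 for Igfbp5 and 0.419 for Igf1 probe 22H. By rank, Igf2r and Igfbp5 ran against this number as closely as Igfbp6 ran with it, each with a rho of -0.886 (exact permutation p = 0.0333, adjusted p = 0.141). Their r was -0.387 (exact permutation p = 0.356, adjusted p = 0.505) and -0.646 (exact permutation p = 0.163, adjusted p = 0.337), and with controls 2 and 6 removed it was -0.934 and -0.97. With those arrays removed, Igf1 probe 16I and Igf2 had r of 0.973 and 0.954. The r was then 0.73 for Igf1 probe 22H, 0.451 for Ghr and -0.797 for Igfbp4. These values rest on the few arrays left. No share over all probes is given for rho or for r without those arrays. The part of detection in these results, and in the pair of Igf2r with Igfbp5, was not tested.

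**Figure D3:**
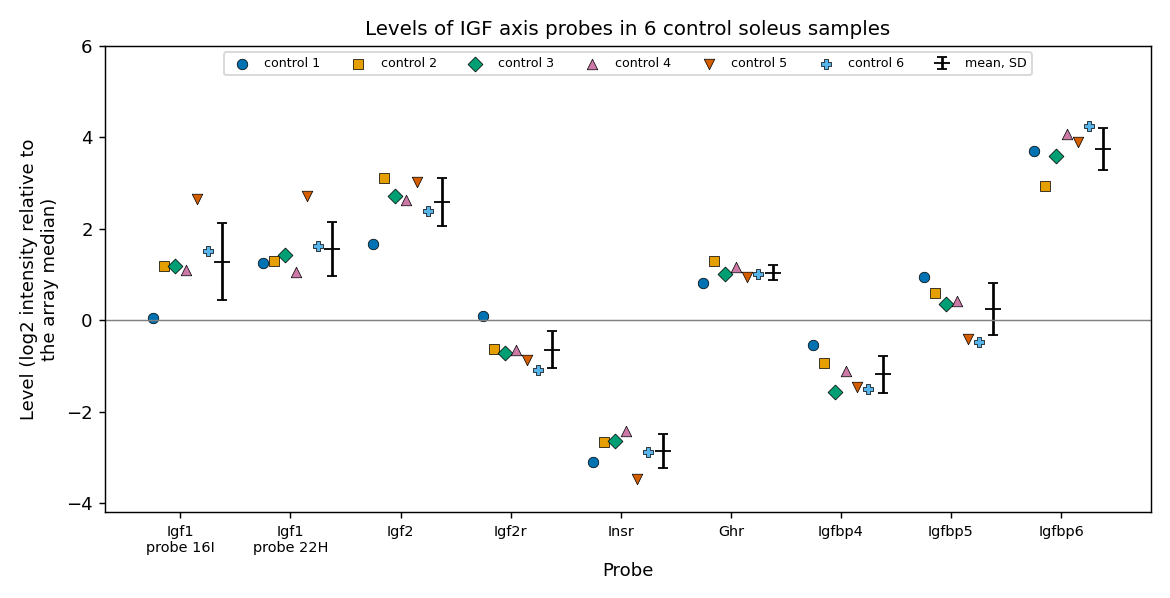
Levels (log2 intensity relative to the array median) of the 9 probes that lay above 0 on all 6 arrays, 1 symbol per control sample, with mean and SD (n = 6) at the right of each. The Igf1 probes are set apart by control 5, Igf2r and Igfbp5 are highest in control 1 (control 4 without centring), Igfbp6 is lowest in control 2, and Ghr stays between 0.81 and 1.30.

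No member passed the test for more spread than probes of like intensity. The SDs of the 9 probes ran from 0.17 for Ghr to 0.84 for Igf1 probe 16I (95% interval 0.52 to 2.05), with a median of 0.46, against a median of 0.54 for all 153 probes. In limma's one-sided F test of each variance against its intensity-matched prior, 0 of 9 passed with Benjamini-Hochberg adjustment over the 153 probes, against 1.31% of all, and 0 of 9 had an unadjusted p under 0.05, against 5.88%. Probe 16I came nearest, with adjusted p = 0.94 in limma against a prior SD of 0.50. A p above the threshold does not show that a gene was constant.

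**Figure D4:**
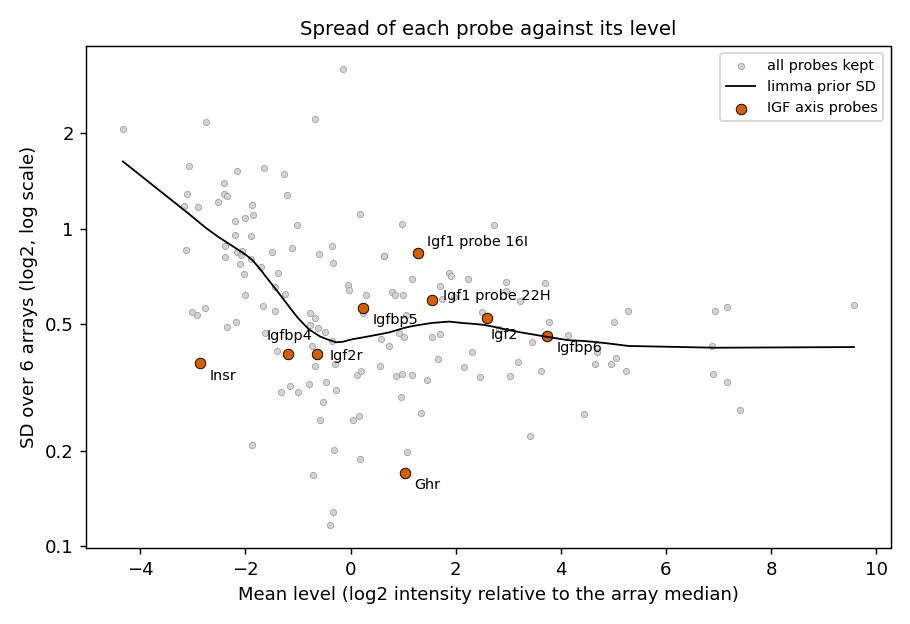
SD over 6 arrays (log scale) against mean level for the 153 probes that lay above 0 on all arrays (grey), with limma's prior SD (line) and the 9 IGF axis probes (orange). Ghr, at an SD of 0.17, and Insr, at 0.38, lie far under the line. Igf1 probe 16I, at 0.84, lies above it, and the other members lie nearer to it.

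Across samples, Igf2r, Igfbp4 and Igfbp5 had positive correlations with one another and negative ones with Igf1, although none passed after adjustment and all were positive without centring of the arrays. Igf2r and Igfbp5 had r = 0.87 (two-sided exact permutation p = 0.00139, the smallest that 720 pairings allow; adjusted p = 0.138 over 5565 pairs of detected probes). Their rho was 1.0 (exact p = 0.00278, adjusted p = 0.156), the same order in all 6 samples, and without controls 1 and 6 r was 0.99. Igf2r and Igfbp4 had r = 0.89 (exact permutation p = 0.0125, adjusted p = 0.174; rho 0.83, exact p = 0.0583, adjusted p = 0.288), and 0.70 without controls 1 and 6. Igf1 probe 16I and Igfbp5 had r = -0.84 (exact permutation p = 0.0167, adjusted p = 0.179; rho -0.77, exact p = 0.103, adjusted p = 0.363), and -0.93 without controls 5 and 1. The other Igf1 probe, 22H, had r = -0.72 with Igfbp5 (exact permutation p = 0.0806, adjusted p = 0.297; rho -0.77, exact p = 0.103, adjusted p = 0.363), and -0.99 without controls 5 and 4.

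These 3 pairs were the ones with an unadjusted p under 0.05 among the 28 pairs of the 8 detected probes, a share of 10.7% against 19.9% of all 5565 pairs. The difference between these shares was not tested, and without control 5 they were 10.7% and 9.94%. After adjustment 0 of the 28 and 0 of the 5565 pairs passed, and after quantile normalization 0 of the 28 and 105 of the 5565. Of the 28 values of r, 11 were above 0, with a median of -0.35, against 59.2% above 0 and a median of 0.23 over all pairs. Without control 1 the median over the 28 was 0.23, and without centring all 28 were above 0. With 1 array left out fewer pairings are possible, so an exact p can rise although r is no weaker. Igf2r with Igfbp4 missed an unadjusted exact permutation p under 0.05 without control 1 (r = 0.65), 2 (0.93) or 6 (0.86). With all 6 arrays its r was 0.89. Igf2r with Igfbp5 missed an unadjusted p under 0.05 without control 5 (r = 0.89) or 6 (0.80), against r = 0.87 with all 6 arrays. After cyclic loess Igf2r with Igfbp4 had r = 0.70 (exact permutation p = 0.126), and with arrays centred on their means Igf1 probe 16I with Igfbp5 had r = -0.68 (exact permutation p = 0.133). The count of member pairs with an unadjusted p under 0.05 was 1 without control 6 and 2 without control 1. Without control 1 the pair of Igf1 probes was among them (exact permutation p = 0.0167). Igf1 probe 16I with Igfbp5 also missed an unadjusted p under 0.05 without control 1, 2, 3, 4 or 5. Its r then ran from -0.86 to -0.73, against -0.84 with all 6 arrays.

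**Figure D5:**
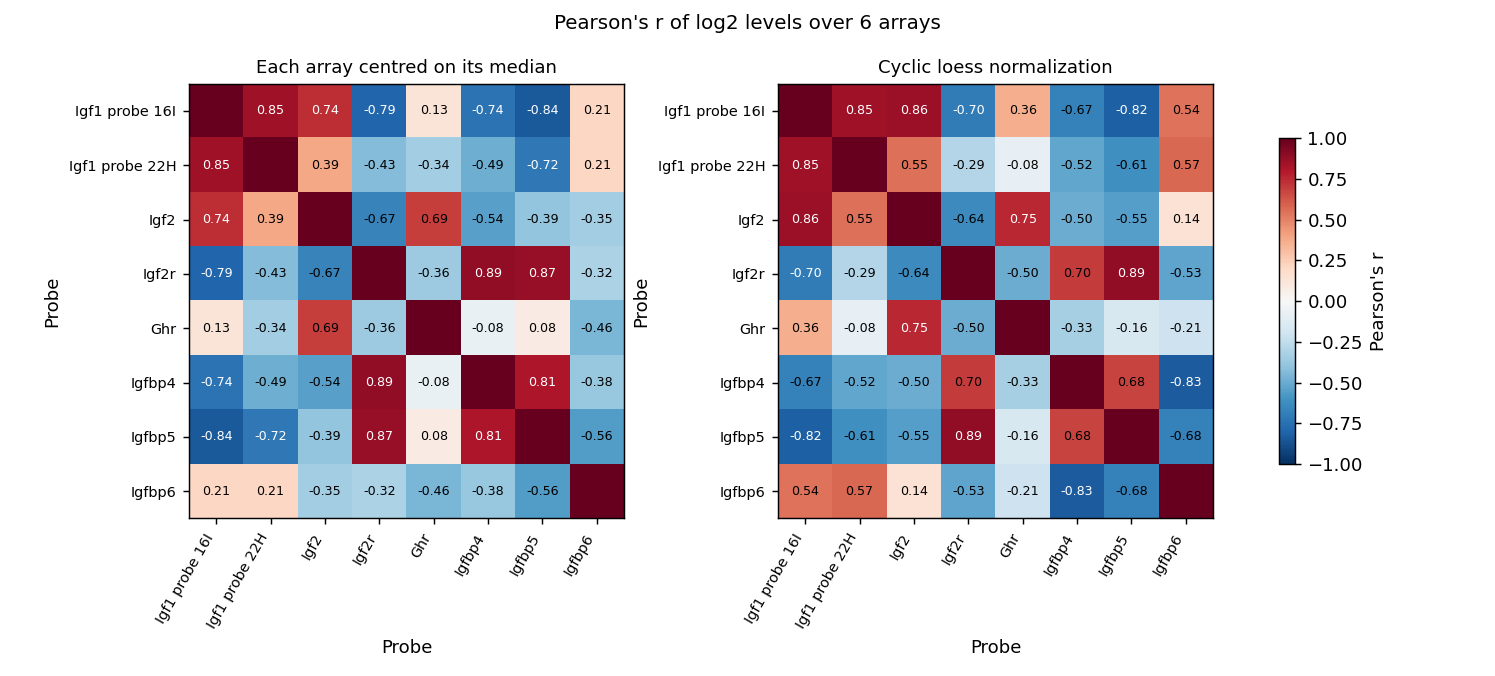
Pearson's r of log2 levels over 6 arrays for the 28 pairs of the 8 probes detected on all arrays, with arrays centred on their medians (left) and after cyclic loess (right). Igf2r, Igfbp4 and Igfbp5 are positive with one another (0.81 to 0.89 on the left) and negative with both Igf1 probes (-0.84 to -0.43 on the left), signs that are all positive without centring, and none of the values passed the adjusted test.

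Ratios of members on the same array do not change when an array is multiplied by a constant, and their change between arrays was compared. The ratio of Igf2r to Igfbp4 differed 1.46-fold between its highest and lowest array, that of Igf2r to Igfbp5 1.67-fold and that of Igfbp4 to Igfbp5 1.85-fold, the 3 smallest of the 28 pairs. The median was 3.69-fold over the 28 member pairs and 3.04-fold over all 5565 pairs. Of all pairs, 3.09%, 8.61% and 14.9% were at or below the 3 smallest values. These 3 pairs were picked as the smallest, so the shares are a description. For each Igf1 probe the ratio to Igfbp5 changed most, 15.4-fold for probe 16I and 7.03-fold for probe 22H, with its peak in control 5 and its minimum in control 1. Of all pairs, 98.3% and 87.7% were at or below these values. Without control 5 these were 7.35-fold and 3.46-fold, and without control 1 5.47-fold and 5.63-fold. The ratio of Igf2 to Igf2r differed 5.07-fold with all samples and 1.55-fold without control 1. Igf2 to Ghr differed 2.35-fold, or 1.63-fold without control 1.

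Markers of other cells moved over the same samples. The summed intensity of the 5 endothelial markers, relative to the array median, was 5.94, 8.98, 8.56, 7.96, 12.8 and 9.63 in controls 1 to 6, highest in control 5 and lowest in control 1, as for Igf1 probe 16I. Of the single markers, Pecam1 and Flt1 had that pattern, while Cdh5 was highest in control 4, Kdr in control 2 and Tek in control 1. Without Pecam1 the sum was highest in control 4, at 5.78, and was 5.33 in control 5. Igf1 probe 22H was highest in control 5 but lowest in control 4. Of all 153 probes, 13.1% were highest in control 5 and 19% were lowest in control 1. The 3 fibroblast probes summed to 8.80 in control 1 and 3.77 to 6.11 in the others. Most of this was 1 probe of Fn1, 9D, with an intensity of 0.1295 in control 1 against 0.0119 for Pdgfra. Each of these had its highest level in control 1, while the other Fn1 probe, 4D, was above the bound on 0 arrays. The 3 fast myosins summed to 102.9 in control 1 and 53.1 to 72.3 in the others. Igf2r, Igfbp4 and Igfbp5 were likewise highest in control 1 with arrays centred on their medians, Igfbp4 not after cyclic loess and none of them without centring. They were 3 of the 9 members, and 34.6% of all 153 probes were highest in control 1. The slow fibre markers ran from 156.7 in control 5 to 406.7 in control 2, and the single adipocyte marker from 2.94 in control 5 to 10.3 in control 2. The listed satellite cell probes summed to between 0.405 in control 3 and 0.966 in control 2. Of these, Myf5 was above the bound on 0 arrays and Myod1 on 4, so this sum rests in part on background. The pericyte marker ran from 0.553 in control 3 to 0.872 in control 5. The part of these cells in the results was not tested.

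The probes most like each member, by Pearson's r over the 6 arrays among 100 other detected probes with a gene symbol, are given as a description. All share the arrays and their differences in detection. Igf1 probe 16I was closest to Fosl2, a subunit of the AP-1 transcription factor (r = 0.97), and to the endothelial adhesion molecule Pecam1 (0.89). Probe 22H was closest to probe 16I (0.85) and to Fosl2 (0.84). Igf2 was closest to Cd34, a surface protein of endothelial and progenitor cells (0.89), and to the cyclin Ccna1 (0.78). Igf2r was closest to the integrin subunit Itgb1 (0.97) and the receptor Fgfr2 (0.94), which were 0.88 and 0.86 after cyclic loess. Ghr was closest to the fatty acid carrier Cd36 (0.95) and the glucose transporter Slc2a2 (0.91), and these fell to 0.69 and 0.61 after cyclic loess. Igfbp4 was closest to the growth factor Tgfb1 (0.96) and the intermediate filament gene Des (0.94), which fell to 0.78 and 0.70. Igfbp5 was closest to the muscle transcription factor Mef2c (0.96, and 0.88 after cyclic loess) and the kinase Dmpk (0.95). Igfbp6 was closest to the vascular ligand Angpt2 (0.91) and the matrix glycoprotein Tnxb (0.86).

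Several members had neighbouring probe identifiers, which ran from 16C for Igf2r through 16D to 16H for Igfbp2 to Igfbp6 to 16I for Igf1 and 16J for Igf2. Whether an identifier gives a place on the array is not stated in the sources used here. Probe 22H for Igf1, 15I for Ghr and 18B for Insr had identifiers of their own. Any part of position in the co-variation was not tested.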

How the data were processed

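The deposited table held 1 intensity per probe and array for 6 arrays, on a linear scale with some values below 0. The sources used here name no scanner, background step or scaling. Per the labels, 3 µg of total RNA was used for each array. Probes were named from the platform annotation: 205 of 223 had 1 gene symbol, 0 had several and 18 had none. Arrays give no counts, so their number and the signal over background limit the precision.

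Intensities were brought to log2 for the 153 probes above 0 on all 6 arrays, and each array was centred on its median. Excess spread was tested with limma 3.58.1 and statmod in R 4.3.3 (intercept per probe, robust prior variance with an intensity trend, one-sided F test, Benjamini-Hochberg over 153 probes, threshold 0.05). Pearson's r was tested two-sided with an exact permutation test over 720 pairings, adjusted over all pairs of the 106 probes above the noise bound on every array. Both procedures were tested on simulated data. For the spread test, the planted excess over the prior SD was larger than that of any member. It therefore does not show whether a spread of the members' size would be found. The members and lists were chosen with earlier results of these data known. The text names the members, the 2 detected probes most like each by r, and pathway genes by count. The alternatives were other scalings, noise bounds, filters, priors and an added pseudocount equal to the noise bound, and each replicate left out in turn. No explanation was tested.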

Additional observations from a re-analysis of the deposited data

Results flagged for a closer look

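A sample that stood far from the others, by Dixon's criterion at 95% for 6 samples, was sought for the levels of 9 member probes and for the ratio of the Igf1 probes. Chance flags about 1 in 20 such groups. The level of Igf1 probe 22H in control 5, 2.71, stood apart from the other samples, with a gap of 0.658 of the whole range against a critical value of 0.625. The same sample was highest on probe 16I, where its gap was 0.439 of the range. The log2 ratio of Igf1 probe 22H to 16I in control 1, 1.19, stood apart as well, with a gap of 0.772 of the range. Igf2r in control 1 came close, with 0.614.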

How the results depend on the processing

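The count of 8 detected members was 8 with each replicate left out and with the 95th percentile of negative intensities as bound. It was 9 for any intensity above 0 and 6 at 2 times the bound. Igf2r and Igfbp4 dropped out at 2 times the bound, through control 2. The count of members with excess spread was 0 in all 16 alternatives, with a lowest adjusted p of 0.586 in limma, while 2 of all 153 probes passed in the reported setting and 0 to 2 of the 106 to 183 probes tested in the alternatives, among them 0 after quantile normalization, after cyclic loess and without control 2. After adjustment 0 member pairs passed in any alternative, while over all pairs 105 passed after quantile normalization and 0 in the reported setting. The count of member pairs with an unadjusted exact permutation p under 0.05 was 3 in the reported setting. It was 7 without centring, where array brightness enters every probe. With each replicate left out, where fewer pairings are possible, it was 1 to 3, but not of the same pairs. The 3 reported pairs did not hold together with any replicate left out. Without replicate 5 the count was 3, and of the reported pairs only Igf2r with Igfbp4 was among them (exact permutation p = 0.025). Without centring, Igf1 probe 16I with Igfbp5 turned to r = 0.21. Without replicate 5, Igf1 probe 22H with Igf2 turned to r = -0.0011, and over the replicates left out it ran from -0.0011 to 0.58. Of 78 alternative values for 6 pairs, these 2 changed sign; the cause was not tested. No paired analysis was possible because the samples form 1 group. Signal near the noise bound limits Insr, Igfbp2 and Igfbp3.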
